A study of Caenorhabditis elegans with 10 samples.

Results

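The circRNAs made from *daf-25* and *mig-1*, both genes of neuronal signalling, were followed across whole *Caenorhabditis elegans* hermaphrodites of 2 genotypes. They were chosen by host gene: a row of the deposited circRNA count table was a member when the study's list of detected circRNAs named *daf-25* or *mig-1* at identical coordinates. Failing that, a looser match was allowed: a single listed circRNA on the same chromosome with its start within 150 nt and its span within 1 nt. Of the 141 circRNA loci in the table, 2 met this rule, 1 for each gene, both at identical coordinates. The study's list of detected circRNAs is longer than the table, so all results below cover only a part of it. Wild-type animals were the Bristol strain N2, and *nova-1* animals carried the deletion allele *tm6146* in the outcrossed strain VDL1105, which is the only mutant line used. Each genotype had 5 biological replicates, and all 10 samples were whole adults on day 3 of adulthood, fed *Escherichia coli* OP50 and kept on plates with FUdR, which blocks progeny. Total RNA from the whole animals was sequenced, so fewer cells of a type and less RNA per cell cannot be told apart. No locus of the table was linked to *nova-1* itself, so the genotype labels could not be checked against the targeted gene.

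CircRNAs are RNA rings without free ends. The spliceosome makes them by back-splicing, in which a ligation runs against the genomic order, and reads across the resulting junction tell them from linear RNA. NOVA proteins are RNA-binding splicing factors, and in the mouse brain NOVA2 promotes the formation of circRNAs. DAF-25 is an ankyrin-repeat and MYND-domain protein, the worm counterpart of mammalian ANKMY2, that is needed to bring guanylyl cyclases into the cilia of sensory neurons. It takes its name from the dauer larva, whose formation depends on cGMP signalling in those neurons. MIG-1 is a Frizzled receptor, a membrane protein that binds secreted Wnt ligands, and is known for its part in steering migrating neurons and their precursors.

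Both circRNAs covered a pair of neighbouring exons, but at different places in their genes. The *daf-25* gene (WBGene00000917) lies on the plus strand of chromosome I from 332604 to 337845 in WBcel235, and its 1 annotated transcript has 5 exons. In the count table the *daf-25* circRNA runs from 332611 to 332949, a span of 339 nt. It falls on exon 1 (161 nt) and exon 2 (104 nt) with the 81-nt intron between them, a stretch of 346 nt in the annotation. The span of the circRNA was thus 7 nt shorter than the exon pair. Exon 1 is the first exon of the gene and has no annotated acceptor upstream of it. It holds the start codon 9 nt from its beginning, and exon 2 is coding throughout. The *mig-1* gene (WBGene00003238) lies on the minus strand of the same chromosome from 948569 to 957456, with 2 annotated transcripts of 9 exons each. Its circRNA, cel_circ_0000014, runs from 952679 to 953094 in the count table. This span of 416 nt equals exactly the length of exon 2 (142 nt), the following 61-nt intron and exon 3 (213 nt), which are coding in full and common to both transcripts. Both spans were below the median of 641 nt over all loci, where they ranked 32nd and 43rd from the shortest.

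The positions of the loci carry a small uncertainty. Of 96 loci with identical coordinates in the study's list and a host gene in the annotation, 70 had the same offset from annotated exon ends at both ends. These offsets ran from -120 to 3 nt over the genome and were 0 at some of the loci. The *mig-1* circRNA was displaced by 2 nt at both ends, whereas the *daf-25* circRNA ended on the last base of exon 2 and began 7 nt inside exon 1. The *daf-25* locus was the only 1 of the 96 with its end within 2 nt of an annotated exon end and its start farther off. The spans compared above do not depend on such a displacement. A further *daf-25* junction in the study's list of detected circRNAs was not analysed here.

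**Figure D1:**
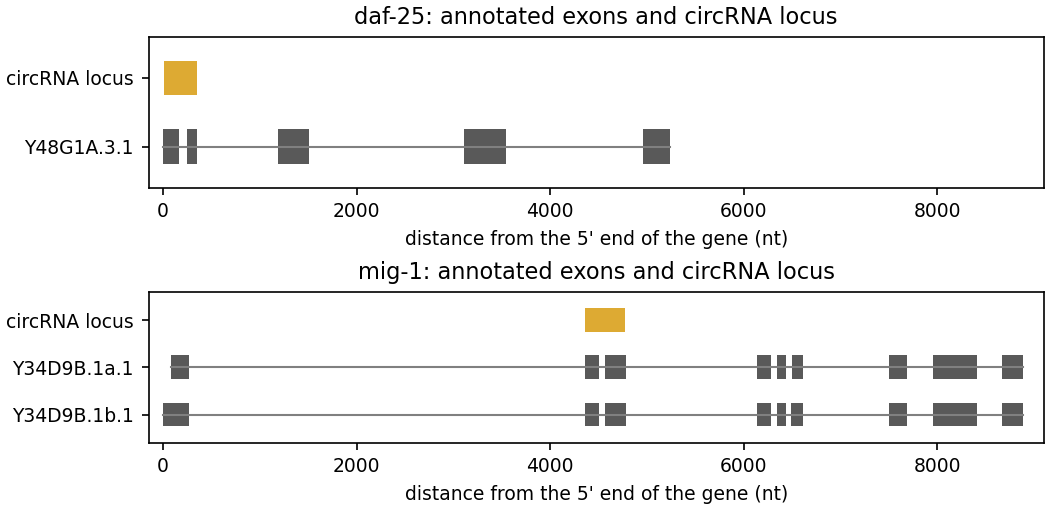
Annotated exons (grey boxes) of each transcript of *daf-25* and *mig-1* and the span of the circRNA locus (yellow), drawn to scale against the distance in nt from the 5′ end of the gene, with the locus placed by the coordinates of the count table. The *daf-25* circRNA lies over exons 1 and 2 of 5 and the *mig-1* circRNA over exons 2 and 3 of 9.

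The values are raw counts of reads on a 200-nt scaffold around each junction, made by the authors, and the scaffolds have equal lengths, so that counts of the 2 circRNAs within a library can be set side by side. Between 7955 and 15014 counts per library fell on the 141 loci. Wild-type replicate 1 had the largest total and was the least similar to the other wild-type libraries. Its Spearman correlation with them, taken across loci, averaged 0.594, and the same average was 0.769 to 0.80 for wild-type replicates 2 to 5. Counts were normalized with TMM, a method that rescales each library so that most loci keep their level, and are given relative to the mean effective library of 9421 counts. At this depth each value rests on 15 to 72 reads. The lowest raw count of the *daf-25* circRNA, 19 in *nova-1* replicate 4, has an exact 95% Poisson interval from 11.4 to 29.7, and the lowest of the *mig-1* circRNA, 15 in *nova-1* replicate 2, one from 8.40 to 24.7. Intervals of this kind cover counting error only.

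The *daf-25* circRNA lay above the median locus of the table, and the *mig-1* circRNA slightly below it. With a mean of 40.4 normalized counts over the 10 libraries it ranked 33rd of 141 loci, against a median locus of 23.99. The *mig-1* circRNA had a mean of 21.7 and ranked 78th. By genotype the *daf-25* circRNA ranked 29th in wild-type and 48th in *nova-1* mutants, and the *mig-1* circRNA ranked 79th and 73rd.

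In wild-type, replicates 1 to 5 had 72, 46, 42, 40 and 35 raw counts of the *daf-25* circRNA, which were 64.6, 45.8, 48.9, 47.7 and 36.3 normalized counts. In *nova-1* mutants the raw counts were 64, 23, 33, 19 and 33, and the normalized counts 52.3, 22.95, 29.4, 19.8 and 36.03. Replicates 2 to 5 of the mutants all lay below every wild-type replicate, although *nova-1* replicate 5 did so by less than 1 count, and *nova-1* replicate 1 lay above 4 of the 5 wild-type replicates. The groups therefore overlapped, whereas 24.8% of all loci had groups that did not. Wild-type averaged 48.7 ± 10.2 normalized counts (SD, n = 5). The *nova-1* average was 32.1 ± 12.9 (SD, n = 5).

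The *daf-25* circRNA did not pass an adjusted *P* under 0.05 over all loci. It was lower in *nova-1* mutants only by a looser criterion, an absolute log2FC above 0.5 with unadjusted *P* under 0.05, which is used for the calls below unless an adjusted *P* is named. Its log2FC was -0.59 (standard error 0.28, 95% interval -1.17 to -0.015), or 0.664-fold, with an unadjusted *P* of 0.0448 and a Benjamini–Hochberg adjusted *P* of 0.113 in the edgeR quasi-likelihood test. Over all loci 19.1% were lower in *nova-1* mutants by the unadjusted criterion and 28.4% passed an adjusted *P* under 0.05 in either direction. The *daf-25* circRNA was thus 1 of the 27 loci called lower. The median log2FC over all loci was -0.095. A two-sided exact permutation test of the normalized counts gave p = 0.0635, where 5 against 5 replicates allow no p below 0.00794.

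This call turned on single libraries and, among the scalings, was lost only with column totals in place of TMM. Without *nova-1* replicate 1 the log2FC was -0.90 and the adjusted *P* was 0.0328 (edgeR), past both criteria. Without wild-type replicate 1 it was -0.45 (unadjusted *P* = 0.0883, edgeR), past neither. The unadjusted criterion was also no longer met in the fits that left out wild-type replicate 2 or 3 or *nova-1* replicate 2, 3, 4 or 5, with log2FC between -0.63 and -0.46. With both first replicates left out, an alternative chosen after the values were seen, the log2FC was -0.72 (adjusted *P* = 0.039, edgeR). As a plain share of all circRNA counts, wild-type libraries were close together, from 4.32 to 5.03 *daf-25* counts per 1000, and *nova-1* libraries ran from 2.13 to 6.78. On that scale wild-type replicate 1 no longer stood above its group, *nova-1* replicate 1 was above every wild-type library and the other 4 *nova-1* libraries were below every one. With column totals in place of TMM the log2FC of the *daf-25* circRNA was -0.32 (unadjusted *P* = 0.321, edgeR). The median log2FC of all loci moved by 0.23 between these scalings, and relative to that median the *daf-25* circRNA was lower by -0.46 under column totals. A single locus with 26552 counts over the 10 libraries weighs heavily in these totals. The other scalings kept the call. Unadjusted *P* was 0.0361 with RLE factors (edgeR), 0.0427 in DESeq2 and 0.0482 with all sequenced reads as library size (edgeR).

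**Figure D2:**
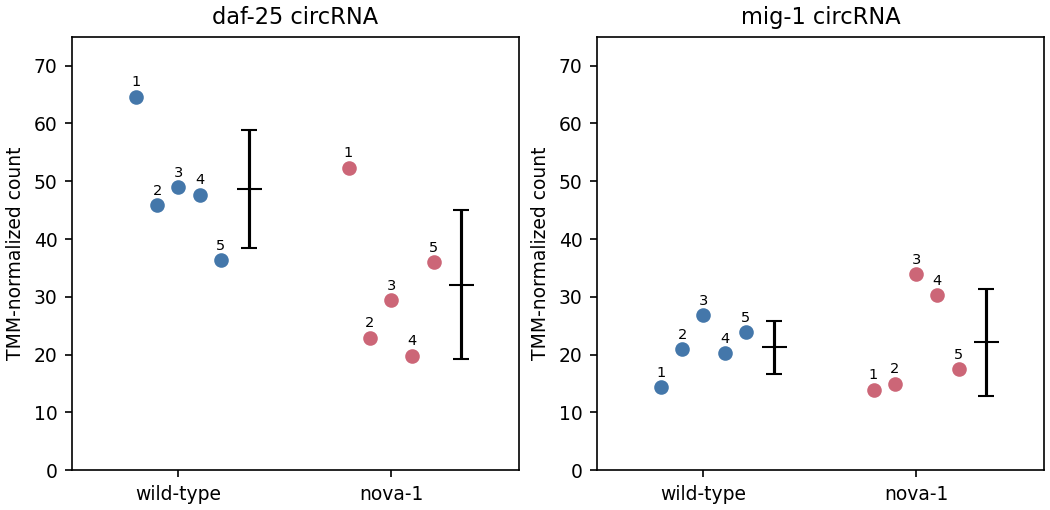
TMM-normalized counts (y axis) of the *daf-25* circRNA (left) and the *mig-1* circRNA (right) in each replicate of wild-type (blue) and *nova-1* (red), with replicate numbers above the points and the mean ± SD of 5 replicates in black. For *daf-25* the mutant replicates 2 to 5 lie between 19.8 and 36.03 and replicate 1 at 52.3, while for *mig-1* the mutant points lie on both sides of the wild-type points.

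The *mig-1* circRNA was not distinguishable between genotypes. Wild-type replicates 1 to 5 had 16, 21, 23, 17 and 23 raw counts, or 14.4, 20.9, 26.8, 20.3 and 23.8 normalized counts. The *nova-1* replicates had 17, 15, 38, 29 and 16 raw counts, or 13.9, 14.97, 33.9, 30.2 and 17.5 normalized counts. The mutant values fell into a low set of 3 replicates and a high pair, replicates 3 and 4, which stood above every wild-type replicate. Wild-type averaged 21.2 ± 4.64 (SD, n = 5). The *nova-1* average was 22.1 ± 9.29 (SD, n = 5). The log2FC was 0.063 (standard error 0.33, adjusted *P* = 0.909, edgeR), and a two-sided exact permutation test gave p = 0.825. The 95% interval of the log2FC, from -0.61 to 0.74, allows anything between 0.654-fold and 1.67-fold. A change within these bounds is therefore not excluded, and the smallest detectable change was not computed. No fit that left out a replicate, and no alternative setting, took the *mig-1* circRNA past either criterion.

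For both circRNAs the *nova-1* replicates were spread more widely than those of wild-type. The SD was 21.0% of the mean in wild-type and 40.2% in *nova-1* mutants for *daf-25*, and 21.8% and 42.0% for *mig-1*. The variance of the normalized counts was 2.14 times the mean in wild-type and 5.19 times in *nova-1* mutants for *daf-25*. It was 1.01 times the mean in wild-type for *mig-1* and 3.90 times in *nova-1* mutants. These spreads rest on 5 values each and were not compared by a test. The share of all loci with a wider spread in *nova-1* mutants was not computed. Across all loci the *nova-1* libraries resembled each other more than the wild-type libraries did. Their average Spearman correlations were 0.837 to 0.878, against 0.594 to 0.80 in wild-type.

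**Figure D3:**
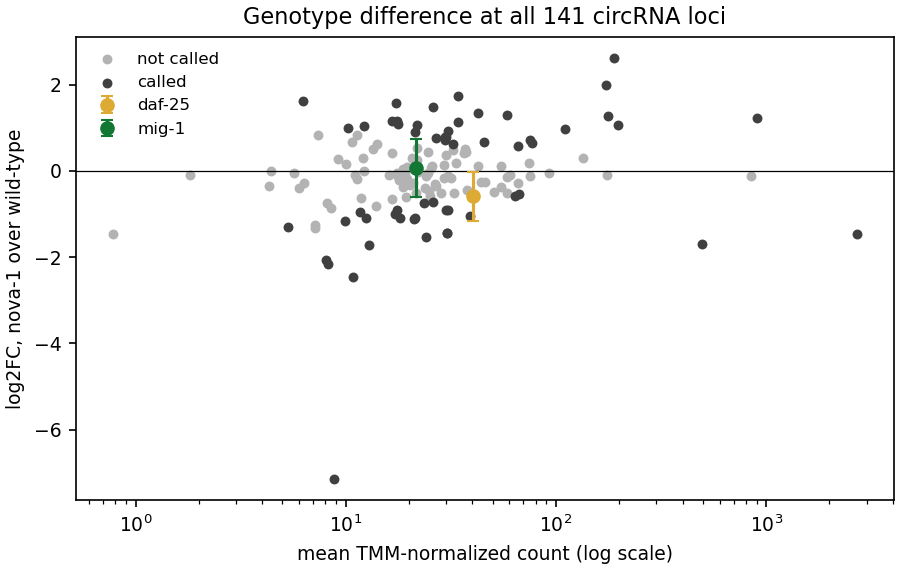
Log2FC of *nova-1* over wild-type (y axis) against the mean TMM-normalized count on a log scale (x axis) for all 141 loci, dark where called at an absolute log2FC above 0.5 with unadjusted *P* under 0.05, with the *daf-25* (yellow) and *mig-1* (green) circRNAs and their 95% intervals. The interval of *daf-25* ends just below 0, at -0.015, and that of *mig-1* runs from -0.61 to 0.74. The lowest point is a locus without counts in any *nova-1* replicate, whose fitted value is no bound.

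The ratio of the 2 circRNAs within a library needs no scaling between libraries. The *daf-25* circRNA had more counts than the *mig-1* circRNA in 8 of 10 libraries, and the mean log2 ratio, with 1 added to each count, was 0.85 ± 0.82 (SD, n = 10), a 1.80-fold excess. With both genotypes pooled, it differed from an equal level beyond the library spread (two-sided exact sign-flip permutation test, 10 libraries, p = 0.0156). The *daf-25* count was the higher one in 5 of 5 wild-type and 3 of 5 *nova-1* libraries. The excess was not tested within either genotype. The 2 libraries in which *mig-1* had more counts were *nova-1* replicates 3 and 4. In wild-type *daf-25* took 69.1% ± 8.06 (SD, n = 5) of the counts of both, with a lowest replicate of 60.3% (95% Wilson interval 47.5 to 71.9) and a highest of 81.8% (72.5 to 88.5). In *nova-1* mutants it took 58.6% ± 15.9 (SD, n = 5), from 39.6% in replicate 4 (27.0 to 53.7) to 79.0% in replicate 1 (68.9 to 86.5). Without replicate 1 of both genotypes, left out after the values were seen, the excess of *daf-25* was 0.56 on the log2 scale and no longer passed (two-sided exact sign-flip permutation test, p = 0.0625).

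Whether the genotype difference at *daf-25* differed from that at *mig-1* was tested on the same ratio. Wild-type had a log2 ratio of 1.16 ± 0.58 (SD, n = 5). That of *nova-1* mutants was 0.53 ± 0.97 (SD, n = 5). The difference of -0.63 did not exceed the replicate spread (exact permutation test, two-sided, p = 0.23). Single libraries moved this value: it was -0.96 without *nova-1* replicate 1 (exact permutation test, p = 0.0794), -0.40 without wild-type replicate 1 (p = 0.444, exact) and -0.35 without *nova-1* replicate 4 (p = 0.46, exact). The range over wild-type replicates, 0.58 to 2.10, lay within that over *nova-1* replicates, -0.58 to 1.85, except for wild-type replicate 1. A genotype difference particular to *daf-25* is therefore not shown. In both genotypes replicate 1 had the highest normalized count of *daf-25*, the lowest of *mig-1* and the highest ratio.

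**Figure D4:**
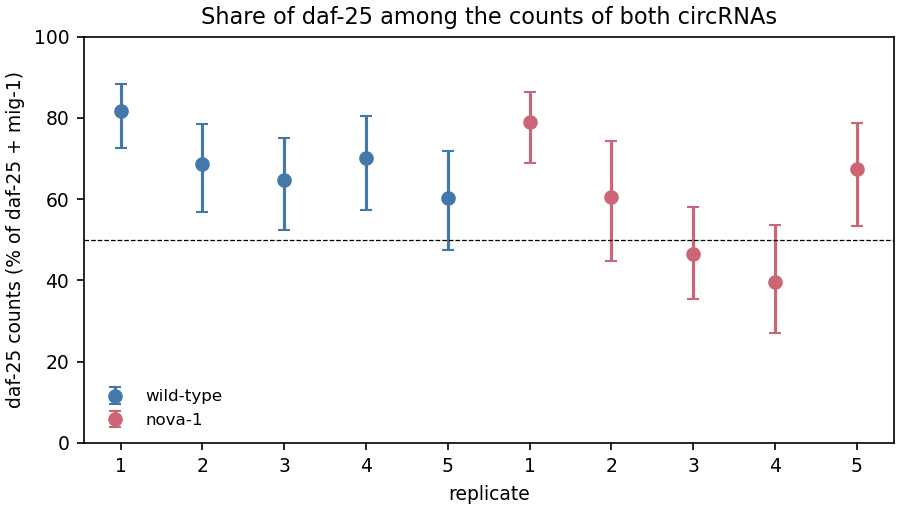
Share of *daf-25* among the summed *daf-25* and *mig-1* counts in percent (y axis) for replicates 1 to 5 of wild-type (blue) and of *nova-1* (red), with 95% Wilson intervals that cover counting error only and a dashed line at equal counts. All wild-type points lie above the line, from 60.3% to 81.8%, and 2 *nova-1* points, at 46.5% and 39.6%, lie below it.

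Other genes of these pathways had few loci in the count table, which holds 141 loci in all. The study detected more circRNAs than these, so a gene without a locus here may still have had a detected circRNA. The share of all genes with a locus was not computed, so these counts show nothing particular to the pathways. Of 28 genes of cGMP signalling and cilium formation, among them the guanylyl cyclase gene *daf-11* and the cyclic nucleotide-gated channel genes *tax-2* and *tax-4*, 0 had a linked locus. Of 27 genes of Wnt signalling, 1 did. This was *tlp-1*, which encodes a zinc-finger transcription factor that acts in cell fate choices of the tail downstream of Wnt. Its circRNA rose from 15.5 ± 9.47 to 53.0 ± 5.14 normalized counts (SD, n = 5 each, log2FC 1.73, standard error 0.32, adjusted *P* = 0.00026, edgeR), where 21.3% of all loci were higher in *nova-1* mutants by the unadjusted criterion. The other Frizzled and Wnt genes chosen had no locus in the count table to set beside *mig-1*. Of 11 further genes of neuronal signalling, 4 had a locus, and 0 of these 4 passed the unadjusted criterion, against 40.4% of all loci in either direction. They were *rimb-1*, a RIM-binding protein of the presynaptic active zone (log2FC 0.68, standard error 0.51), *rgs-4*, a regulator of G-protein signalling (0.47, standard error 0.29), *max-2*, a p21-activated kinase of axon guidance (0.19, standard error 0.30), and *wve-1*, a WAVE actin regulator (-0.12, standard error 0.36). None of the 4 had a log2FC as low as that of the *daf-25* circRNA. Only 33 of all 141 loci had a lower one, so these 4 loci do not set it apart. Their unadjusted *P* in edgeR ran from 0.116 to 0.736.

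The loci whose normalized counts most resembled those of the *daf-25* circRNA over the 10 libraries were on other chromosomes or far along the same one. The highest Pearson correlations of log2 counts were with circRNAs of *elf-1* (r = 0.93, Spearman's rho 0.84), *eri-5* (r = 0.85, rho 0.71) and *Y105E8A.25* (r = 0.78, rho 0.66). They were 0.80, 0.69 and 0.74 when the libraries farthest from the *daf-25* median, *nova-1* replicates 2 and 4, were left out, and 0.91, 0.81 and 0.70 without wild-type replicate 1. In all, 7 of the 139 other loci reached an r of 0.7. For the *mig-1* circRNA 0 of 139 did so, and the closest were circRNAs of *ret-1* (r = 0.695, rho 0.67), *afd-1* (r = 0.68, rho 0.67) and *F54A3.2* (r = 0.66, rho 0.60). Without *nova-1* replicates 1 and 3, the farthest from its median, these were 0.74, 0.42 and 0.69. Without wild-type replicate 1 they were 0.715, 0.726 and 0.62. The count of 0 thus changed with either choice of libraries left out. Between the *daf-25* and *mig-1* circRNAs r was -0.44 (rho -0.52), with -0.30 when wild-type replicate 1 was left out, -0.70 without *nova-1* replicates 2 and 4 and -0.29 without *nova-1* replicates 1 and 3. These correlations describe 10 libraries that share genotype differences, library composition and the same scaling factors, and the loci named were picked as the highest of many.

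**Figure D5:**
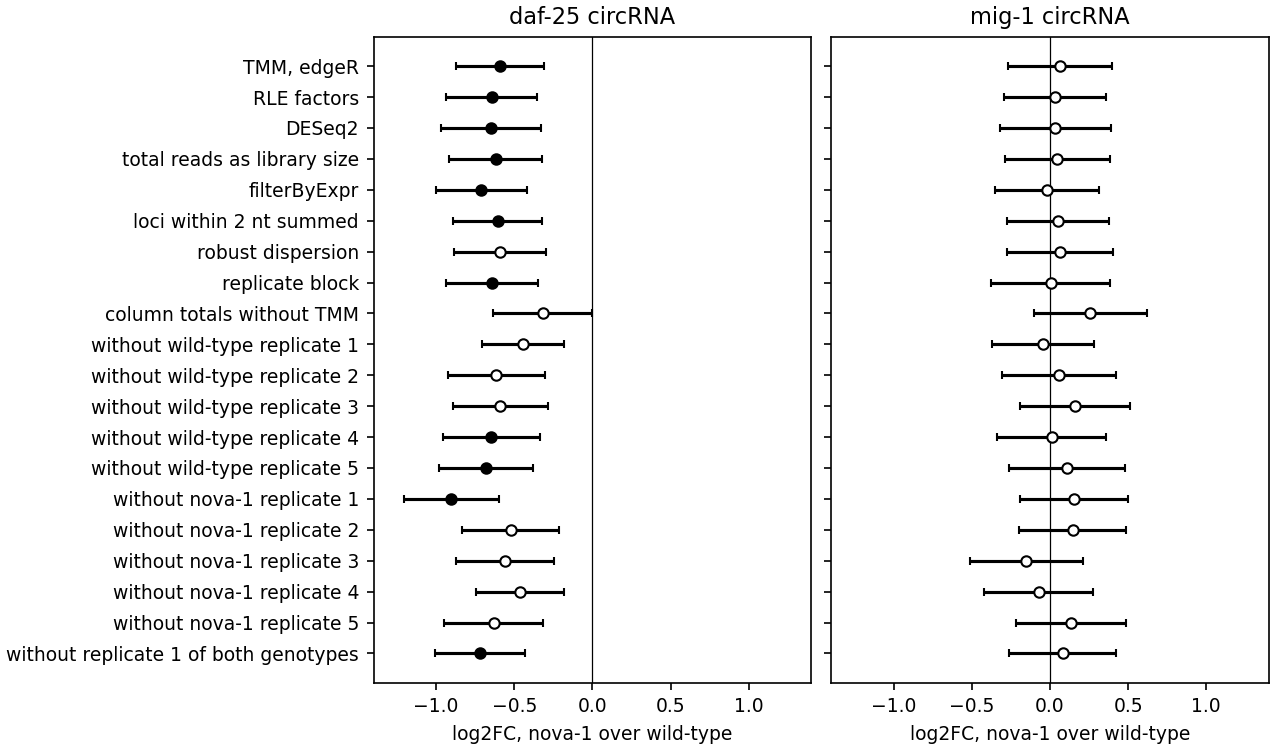
Log2FC of *nova-1* over wild-type (x axis) with its standard error for the *daf-25* (left) and *mig-1* (right) circRNAs under each setting of the analysis (y axis), filled where the absolute log2FC was above 0.5 with unadjusted *P* under 0.05. All *daf-25* points lie below 0, from -0.90 to -0.32, and some are filled and others not, while the *mig-1* points lie between -0.15 and 0.26 and none is filled.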

How the data were processed

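Total RNA libraries of 5 wild-type and 5 *nova-1* samples were analysed from one table of raw read counts. The authors made the deposited counts by HISAT2 and BWA alignment to WBcel235/ce11, CIRI2 prediction with a minimum of junction reads, Bowtie2 mapping to junction scaffolds, Picard duplicate removal and featureCounts, with replicates kept apart. Loci a few nt apart can share reads. Host genes were linked at identical coordinates for 112 loci and by the looser match for 26, and 3 had no link. The named circRNAs of *tlp-1*, *elf-1* and *Y105E8A.25* were linked by the looser match. Columns were matched to samples by genotype and replicate number, with none left over. Exons are those of the Ensembl WBcel235 annotation. All 141 loci were fitted in edgeR v4.0.16 (R v4.3.3; glmQLFit and glmQLFTest, TMM, no covariate), and *P* was adjusted over all of them. The standard error of a log2FC is its absolute value over the square root of *F*. Exact permutation tests used scipy v1.17.1. The edgeR and DESeq2 fits were tested on simulated counts with changes larger than that at *daf-25*, so the power for a change of its size was not examined. The permutation tests were checked on small fixed sets of values. The members, the gene lists and the tests were chosen with earlier results of these data known. The circRNAs named are the members, the list loci and the 3 closest loci by correlation for each member. Total counts per library, 7955 to 15014, limit the precision of each value. Linear RNA of the host genes was not analysed here. Within a genotype no library was a repeat of another: chi-square per degree of freedom was at least 2.40 for every pair of replicates. Pairs between genotypes were not checked in this way.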

Additional observations from a re-analysis of the deposited data

How the results depend on the processing

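The count of called loci, 57 (30 higher and 27 lower in *nova-1* mutants), ran from 47 to 56 under RLE factors, DESeq2 v1.42.0, library sizes taken from all sequenced reads, filterByExpr, summing of loci within 2 nt, robust dispersion, the replicate block and column totals, which gave 35 higher and 16 lower. It ran from 48 to 58 with replicates left out. The *daf-25* log2FC stayed negative throughout. It no longer met the unadjusted criterion with robust dispersion (-0.59, unadjusted *P* = 0.0515, edgeR) or column totals (-0.32), and ran from -0.90 to -0.45 with replicates left out. Its adjusted *P* ran from 0.0328 to 0.243 with replicates left out and from 0.0702 to 0.539 otherwise. The *mig-1* log2FC was -0.017 with filterByExpr, which removes low loci, and ran from -0.15 to 0.16 with replicates left out, so its sign is not settled. The difference in ratio between genotypes ran from -0.96 to -0.35, with p from 0.0794 to 0.46 (exact permutation tests), and the excess of *daf-25* over *mig-1* from 0.56 to 1.01. The deviations of same-numbered replicates from their group means had correlations of -0.16 to 0.15 over 5 pairs. The labels do not say whether such replicates were prepared together, and these correlations cannot exclude it. The samples were treated as unpaired. With the replicate block the log2FC was -0.64 for *daf-25* (unadjusted *P* = 0.0316, edgeR) and 0.0041 for *mig-1*, and the block moved the count of calls to 53. The ratio difference, taken as same-numbered pairs, was -0.63 (exact sign-flip permutation test, p = 0.188). Summed *daf-25* loci and a split between them were not run, because *daf-25* had 1 locus. The causes of these shifts were not tested.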
